A study of Mus musculus with 6 samples.

Results

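The 10 genes described here encode enzymes and binding proteins that write, read and remove DNA methylation in the mouse. They are Dnmt1, Dnmt3a, Dnmt3l, Uhrf1, Mbd2, Mbd4, Tet1, Tet2, Tet3 and Tdg, taken by name from 49943 annotated genes on chromosomes 1 to 19, X and Y (RefSeq, GRCm38.p6, the assembly also called mm10). A peak was assigned to a gene when it overlapped the gene's span plus or minus 2000 bp, which is called its window here. Cover is given as a share of the window, and the coordinates beside a gene's name are those of its span. All 10 were in the annotation, and all 10 had at least 1 peak in at least 1 library.

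Peaks came from methylated DNA of whole lung, captured with a methyl-CpG-binding protein and sequenced, so that a peak is a stretch in which methylated fragments piled up. The transgenic mice have the genotype SPC-DNMTdelta3B/DG. In it the promoter of surfactant protein C (SPC), active in alveolar type 2 cells, drives ∆DNMT3B4-del, a variant of the methyltransferase DNMT3B. There were 3 transgenic and 3 wild-type libraries, 1 per lung sample, all from mice aged 12 to 16 months. The labels name 4 founder lines but not the line of each animal, and spell the genotype of transgenic replicate 2 without the numeral. The study asked where lung methylation differs when this variant is present. Since the DNA came from whole lung, a change within 1 cell type and a change in the make-up of cell types cannot be told apart.

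DNA methylation in mammals is laid on CpG dinucleotides by DNMT3A and DNMT3B and copied at replication by DNMT1, which UHRF1 brings to newly replicated DNA. DNMT3L has no enzyme activity of its own and assists DNMT3A and DNMT3B, mainly in germ cells. TET1, TET2 and TET3 oxidise methylcytosine, and the glycosylase TDG excises some of the oxidised bases. MBD2 binds methylated CpG and recruits a repressive chromatin complex, and MBD4 both binds methylated DNA and repairs mismatches that arise when methylcytosine deaminates. The starts of such widely used genes commonly lie in CpG-rich DNA that carries little methylation, while methylation within gene bodies is common.

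The 6 peak lists differed greatly in length. The transgenic replicates 1, 2 and 3 had 120349, 116352 and 78952 peaks, and the wild-type replicates 60131, 111211 and 30640. Of all bases in windows of the 21887 protein-coding genes, 3.04%, 2.54% and 1.57% were covered in the transgenic lists, against 1.15%, 2.58% and 0.276% in the wild-type lists. Wild-type replicate 2 was therefore like the longer transgenic lists, and wild-type replicate 3 had the least cover of all. Read depth is unknown, and whether it set these lengths was not tested. Peaks in DNA do not measure expression, so the lung label could be looked at only through the gene ends of lineage genes. Of the 5 with a known strand, Abca3, Lamp3, Nkx2-1 and Ptprc had no peak within 2000 bp of the upstream end in any list. Sftpb had such a peak in 2 transgenic lists and 1 wild-type list. Sftpc, Sftpd, Scgb1a1 and Pecam1 have no strand in the table used. Within 2000 bp of the lower-coordinate end, Sftpc had a peak in all 6 lists, Pecam1 in 3 transgenic and 2 wild-type lists, and Sftpd and Scgb1a1 in 0.

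Peaks of the 6 lists, merged where they shared or touched a base, gave 92 regions in the 10 windows, of which 79 (85.9%) lay in the gene body, more than 2000 bp inside both ends. Bodies make up 86.7% of the sequence of the 10 windows, so the regions were spread over bodies and ends about as the sequence is. A start end here is the 2000 bp on either side of the upstream end of the gene span, wherever the annotated starts lie. Only 4 regions lay at a start end and 7 at the opposite end of a gene. A further 2 lay at the higher-coordinate end of Mbd2, whose strand was not used here. Distances in kb given for regions run from the upstream end of the gene span to the middle of the region. The start windows of the other 9 genes made up 5.99% of all window sequence and held 4.35% of the regions. In the transgenic lists, 2.36%, 3.29% and 2.51% of the bases in these start windows were covered, against 0%, 2.41% and 0% in the wild-type lists. The bodies of the same genes were covered to 5.19%, 4.40% and 2.12% in the transgenic lists, against 1.81%, 4.85% and 0.299% in the wild-type lists. At the opposite ends the cover was 5.91%, 4.16% and 1.48% in the transgenic lists, against 1.17%, 2.99% and 0% in the wild-type lists. The body was more covered than the start windows in every list except that of transgenic replicate 3, and more covered than the opposite ends in every list except that of transgenic replicate 1. Bodies were also above starts in each list over 10298 protein-coding genes of 12000 bp or more, with 1.73% and 2.82% in transgenic replicate 1. Their opposite ends were above bodies in each list, which held for the members in transgenic replicate 1 alone. In the transgenic lists these opposite ends had 4.65%, 3.86% and 2.39%, and the bodies 2.82%, 2.35% and 1.44%. In the wild-type lists the opposite ends had 1.65%, 3.93% and 0.376%, and the bodies 1.06%, 2.36% and 0.254%.

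**Figure D1:**
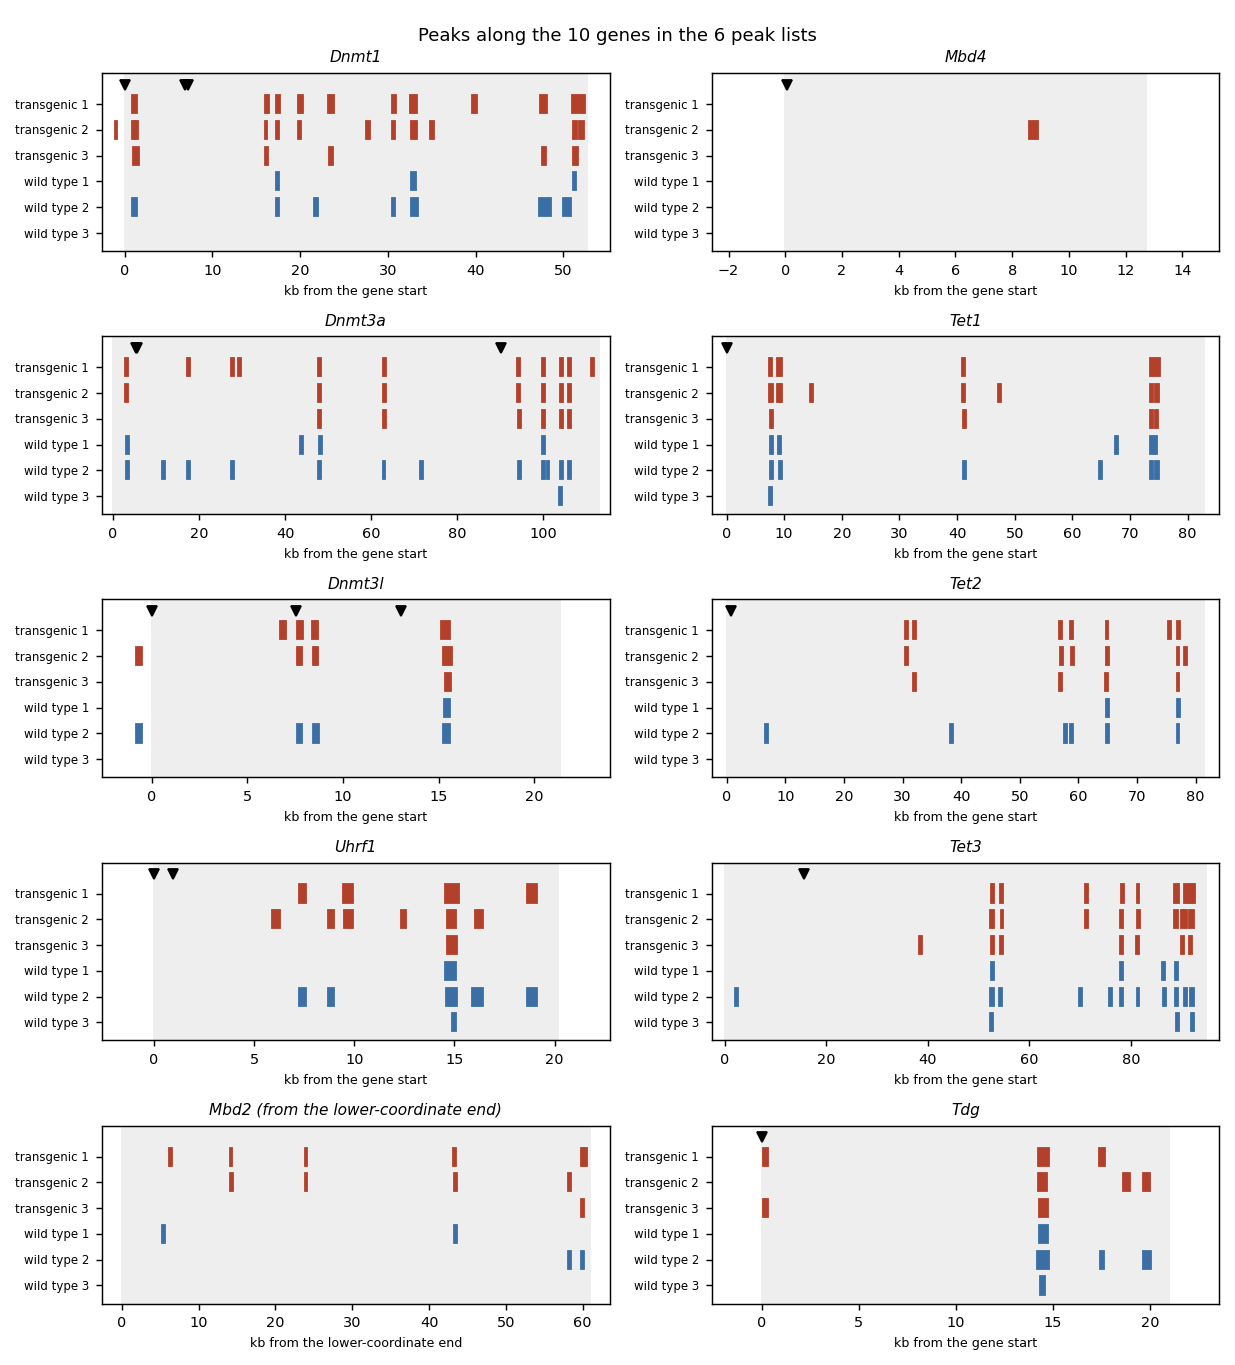
Peaks (coloured blocks, transgenic libraries above wild-type libraries) along the 10 genes. Positions are in kb from the gene start (the upstream end of the span), or from the lower-coordinate end for Mbd2. Grey marks the gene span, triangles mark annotated starts, and blocks narrower than 0.6% of the span are widened to be visible. Blocks that line up down a panel are regions found in several lists, and most lie away from the triangles.

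Start ends with a peak were found for Dnmt1, Dnmt3l and Tdg. The counts that follow are of peaks within 2000 bp of the upstream end of the gene span, and annotated starts further inside were not counted. Among the 9 genes with a known strand, 2, 2 and 2 had such a peak in transgenic replicates 1, 2 and 3. In wild-type replicates 1, 2 and 3 the counts were 0, 2 and 0. The corresponding share of 10298 long protein-coding genes was 14.4%, 14.7% and 9.23% in the transgenic lists, against 6.93%, 15.1% and 2.83% in the wild-type lists. Counts this small do not set the genes apart from that share. At the opposite end, 3, 2 and 1 of the 9 genes had a peak in the transgenic lists, against 1, 3 and 0 in the wild-type lists. Of the long protein-coding genes, 33.7%, 32.2% and 22.5% had a peak there in the transgenic lists, against 16.6%, 31.0% and 6.79% in the wild-type lists. A peak in the body was found in 9, 10 and 8 of the 10 genes in the transgenic lists, against 9, 9 and 5 in the wild-type lists. Among the long protein-coding genes that share was 79.0%, 79.1% and 69.8% in the transgenic lists, against 63.4%, 77.8% and 40.3% in the wild-type lists. The 10 genes span 12704 bp (Mbd4) to 112885 bp (Dnmt3a). Lengths were not matched between the sets, and a longer body has more room for a peak.

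RefSeq lists 16 starts for 9 of the genes, Mbd2 having no entry. The 300 bases around each start, from 250 before to 50 after, held between 2 CpG dinucleotides (Dnmt1, the most upstream start) and 57 (Tet2), with a median of 20, against a median of 7 over 32851 promoters in the same table. Of the 16 starts 10 had 15 or more CpG, a number reached by 34.6% of all promoters. Peaks overlapped this stretch at 2 of the 16 starts, the start of Tdg in transgenic replicates 1 and 3 and an internal start of Dnmt3l in wild-type replicate 2. Across all promoters a peak was found in 5.32%, 5.20% and 3.04% in the transgenic lists, against 2.26%, 5.43% and 0.788% in the wild-type lists. In transgenic replicate 1 it was found in 2.21% of promoters with under 5 CpG, 12.5% of those with 5 to 14 and 3.09% of those with 15 or more.

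The 4 stretches that follow are shown because they span the range of these starts, from CpG-poor to CpG-rich and from peaks at the start to none. They are RefSeq sequences of GRCm38.p6, given as the table gives them and read from 5′ to 3′, with each CG in capitals. CG is its own reverse complement, so 1 strand shows all sites, and 94.6% of all promoters hold at least 1.
Tdg, chr10:82629588-82629887, plus strand: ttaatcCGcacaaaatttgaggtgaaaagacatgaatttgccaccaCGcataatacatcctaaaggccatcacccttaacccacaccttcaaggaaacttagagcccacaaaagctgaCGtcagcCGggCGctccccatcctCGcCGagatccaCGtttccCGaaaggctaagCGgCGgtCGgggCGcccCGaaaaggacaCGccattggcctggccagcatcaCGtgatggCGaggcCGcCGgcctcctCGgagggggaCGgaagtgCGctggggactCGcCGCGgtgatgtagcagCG
Dnmt3l, internal start, chr10:78049592-78049891, plus strand: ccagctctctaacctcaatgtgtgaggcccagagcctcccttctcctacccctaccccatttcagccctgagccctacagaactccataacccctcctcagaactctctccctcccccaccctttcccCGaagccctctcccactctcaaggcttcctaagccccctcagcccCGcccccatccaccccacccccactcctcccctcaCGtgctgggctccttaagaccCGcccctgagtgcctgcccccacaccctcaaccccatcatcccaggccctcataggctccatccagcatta
Dnmt1, most upstream start, chr9:20959839-20960138, minus strand: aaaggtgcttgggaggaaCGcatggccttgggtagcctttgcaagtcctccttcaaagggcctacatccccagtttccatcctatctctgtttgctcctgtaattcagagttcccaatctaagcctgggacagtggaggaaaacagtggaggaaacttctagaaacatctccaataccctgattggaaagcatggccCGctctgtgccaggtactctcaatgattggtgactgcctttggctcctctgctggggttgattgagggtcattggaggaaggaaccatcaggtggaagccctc
Tet2, chr3:133544341-133544640, minus strand: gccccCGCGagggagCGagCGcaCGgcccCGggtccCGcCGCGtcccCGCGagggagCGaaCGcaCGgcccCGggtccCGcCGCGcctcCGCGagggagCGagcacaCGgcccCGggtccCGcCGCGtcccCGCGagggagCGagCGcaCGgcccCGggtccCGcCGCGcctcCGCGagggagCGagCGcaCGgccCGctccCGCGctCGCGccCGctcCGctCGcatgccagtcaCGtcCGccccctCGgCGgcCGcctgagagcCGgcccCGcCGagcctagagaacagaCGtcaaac

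The Tdg stretch holds 26 CG, a number reached by 16.9% of all promoters, and had a peak directly at its start in transgenic replicates 1 and 3. The peaks began 16 and 13 bp beyond the start and formed a region from 82629851 to 82630117 on chromosome 10, with scores of 76.6 and 58.3. The score was assigned by the authors' peak caller, is 50 or more in every list, and was not rescaled here between libraries. In transgenic replicate 2 and in wild-type replicates 1, 2 and 3 the nearest peak lay 14225, 14238, 14178 and 14328 bp away. The start of Tdg thus had a low-scoring peak in 2 of 3 transgenic lists and 0 of 3 wild-type lists, so the groups overlap.

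The Dnmt3l stretch holds 4 CG. A region from 78049864 to 78050186 on chromosome 10 lay at its downstream edge, with scores of 213 and 61.6 in transgenic replicates 1 and 2 and 78.6 in wild-type replicate 2, and no peak in the other 3 lists. The nearest peak began 59 and 63 bp beyond this start in those transgenic lists, just outside the stretch, and 22 bp beyond it in wild-type replicate 2, where 28 bases of the stretch were covered. The start of the Dnmt3l span itself had 6 CG and a peak 478 bp away in transgenic replicate 2 and 516 bp away in wild-type replicate 2. Peaks around the Dnmt3l starts were thus found in long lists of both groups.

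Dnmt1 showed a contrast among its own starts. The gene is known in mouse to use an upstream start in oocytes and a downstream start in somatic cells, and the table does not say which is which. The upstream stretch shown holds 2 CG, and a region from 20958301 to 20959021 on chromosome 9 lay inside the gene near it. A further region (20960769 to 20961000), on the upstream side, was in transgenic replicate 2 alone with a score of 103. The scores of the inner region were 169, 67.1 and 105 in the transgenic lists, against 174 in wild-type replicate 2, with no peak in wild-type replicates 1 and 3. The distance from the start to that peak was 867, 869 and 950 bp in the transgenic lists, against 871 bp in wild-type replicate 2. The most CpG-rich Dnmt1 start, 7.26 kb into the gene with 33 CG, had no peak nearer than 5678 bp in any list. The remaining start, 6.91 kb into the gene with 12 CG, had none nearer than 5322 bp. Tet2, with 57 CG at its start, had no peak nearer than 29792 bp in the transgenic lists and none nearer than 5798 bp in the wild-type lists.

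Starts of the other genes with a known strand had no peak within 2000 bp in any of the 6 lists. The nearest peak lay at least 2897 bp from either Uhrf1 start, 7204 bp from that of Tet1, 8537 bp from that of Mbd4 and 13135 bp from that of Tet3. For Dnmt3a it lay at least 2001 bp from the pair of upstream starts, which have 46 and 47 CG, and 3876 bp from the internal start 90.2 kb into the span.

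**Figure D2:**
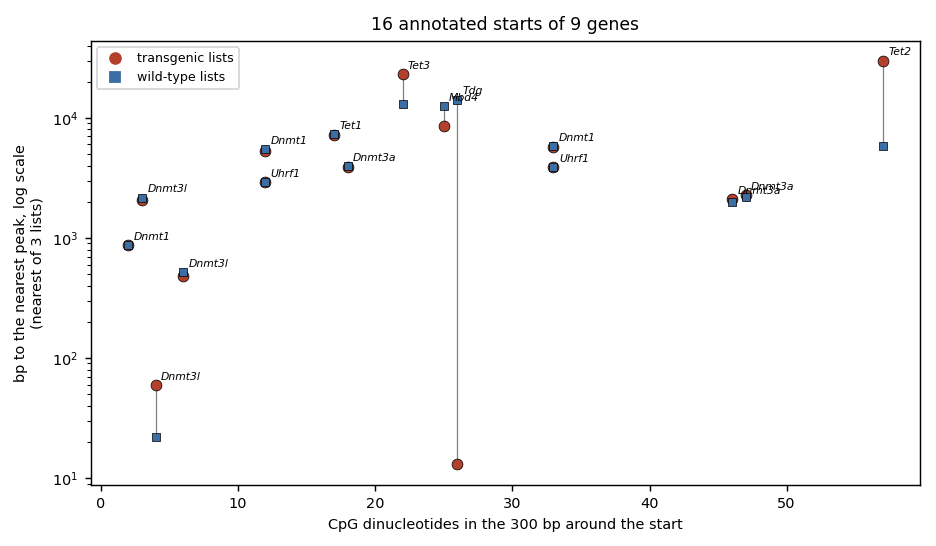
Distance in bp (log scale) from each of 16 annotated starts to the nearest peak in any transgenic list (red circles) and in any wild-type list (blue squares), against the number of CpG in the 300 bp around the start. Circle and square lie together for most starts. The Tdg start is 13 bp from a transgenic and 14178 bp from a wild-type peak.

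Among the writers, the maintenance methyltransferase gene Dnmt1 had a mean cover of 7.87% in the transgenic and 3.53% in the wild-type lists. The gene spans 20907206 to 20959888 on chromosome 9, and peaks covered 11.6%, 8.12% and 3.88% of its window in the transgenic lists, against 2.36%, 8.22% and 0% in the wild-type lists. The groups overlapped, since wild-type replicate 2 lay above 2 of the transgenic lists. It held 11, 12 and 5 peaks in the transgenic lists, against 3, 7 and 0 in the wild-type lists, in 16 merged regions of which none was in more than 4 lists. In the body, the most highly scored region (20926503 to 20927343) had scores of 180 and 146 in transgenic replicates 1 and 2 and 58.0 and 175 in wild-type replicates 1 and 2. A region near the opposite end (20908205 to 20908873) had scores of 178, 83.9 and 120 in the transgenic lists, against 72.0 in wild-type replicate 1.

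Uhrf1 (chromosome 17, 56303337 to 56323486), the partner that brings DNMT1 to hemimethylated DNA, was covered to 8.41%, 9.10% and 2.12% in the transgenic lists, against 2.25%, 9.45% and 0.820% in the wild-type lists. The highest value belonged to a wild-type library. Its region from 56317876 to 56318581, 14.9 kb from the start, was 1 of 4 regions of these genes found in all 6 lists. The scores there were 233, 196 and 96.8 in the transgenic lists, against 87.7, 103 and 58.5 in the wild-type lists. The other 7 Uhrf1 regions were in 1 or 2 lists each, all of them transgenic replicate 1 or 2 or wild-type replicate 2.

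Dnmt3a (chromosome 12, 3801559 to 3914443), a de novo methyltransferase, was covered to 4.05%, 2.50% and 1.64% in the transgenic lists, against 1.21%, 3.93% and 0.186% in the wild-type lists. Its most highly scored region (3901376 to 3901901), 100.1 kb from the start, had scores of 510, 243 and 158 in the transgenic lists, against 129 and 201 in wild-type replicates 1 and 2. The region from 3849394 to 3849876 followed, with 391, 137 and 166 in the transgenic lists, against 65.2 and 214 in the same wild-type lists. Neither was found in wild-type replicate 3, whose single peak in this gene had a score of 59.6 and was matched in all 3 transgenic lists and in wild-type replicate 2.

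Dnmt3l (chromosome 10, 78042287 to 78063622) had 4, 4 and 1 peaks in the transgenic lists, against 1, 4 and 0 in the wild-type lists, covering 5.30%, 5.22% and 1.07% of the window against 1.20%, 5.15% and 0%. Its most shared region (78057422 to 78057967), 15.4 kb from the start, had scores of 176, 91.7 and 58.0 in the transgenic lists, against 67.2 and 115 in wild-type replicates 1 and 2. The values of transgenic replicate 3 and wild-type replicate 1 were close to each other.

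The methyl-CpG-binding proteins among the 10 are MBD2 and MBD4. Mbd2 (chromosome 18, 70568225 to 70629134) was covered to 3.32%, 1.85% and 0.471% in the transgenic lists, against 0.743%, 1.02% and 0% in the wild-type lists, and no region of it was in more than 3 lists. Its most highly scored region (70611368 to 70611835) had scores of 141 and 69.0 in transgenic replicates 1 and 2, against 61.9 in wild-type replicate 1. Mbd4 (chromosome 6, 115840697 to 115853400), the shortest of the 10 genes, had a single peak in transgenic replicate 2, 8.76 kb from the start with a score of 62.6, and none in the other 5 lists.

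The genes of the TET dioxygenases had long bodies with a few recurrent regions. Tet1 (chromosome 10, 62804570 to 62887469) was covered to 3.69%, 4.06% and 1.91% in the transgenic lists, against 2.51%, 2.97% and 0.213% in the wild-type lists. A region 7.68 kb from its start (62879461 to 62880120) was in all 6 lists, with scores of 259, 185 and 257 in the transgenic lists, against 57.1, 97.2 and 65.6 in the wild-type lists. Every transgenic score there was above every wild-type score, but scores are not scaled between lists and no test was made of them. How many of all regions have this pattern was not counted. The median score of all peaks was 127, 103 and 91.3 in the transgenic lists, against 75.3, 103 and 70.6 in the wild-type lists. In the regions of Uhrf1, Tet3 and Tdg found in all 6 lists, the scores of the groups overlapped. A region 74.7 kb from the start (62812303 to 62813266) had 365, 293 and 157 in the transgenic lists, against 61.5 and 219 in wild-type replicates 1 and 2.

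Tet2 (chromosome 3, 133463677 to 133545136) was covered to 3.14%, 2.49% and 1.59% in the transgenic lists, against 0.725%, 2.49% and 0% in the wild-type lists. Transgenic replicate 2 and wild-type replicate 2 had the same number of covered bases, 2132. Regions at 77.0 and 64.9 kb were each in 5 lists, absent only from wild-type replicate 3. Scores at 77.0 kb (133467908 to 133468352) were 277, 242 and 169 in the transgenic lists, against 99.3 and 244 in wild-type replicates 1 and 2.

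Tet3 (chromosome 6, 83362373 to 83457208) was covered to 5.39%, 4.88% and 2.62% in the transgenic lists, against 1.96%, 5.76% and 0.536% in the wild-type lists, with the highest value in a wild-type library. Its region from 83404212 to 83404907, 52.6 kb from the upstream end of the span, was in all 6 lists, with scores of 446, 153 and 119 in the transgenic lists, against 98.1, 245 and 52.9 in the wild-type lists. The listed Tet3 start lies 15.5 kb into that span. Only 2 of the 14 Tet3 regions lay nearer than 50 kb to the upstream end, each in 1 list.

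Tdg (chromosome 10, 82629814 to 82650799), the glycosylase gene, had a region in its body that was in all 6 lists. It lay 14.5 kb from the start (82644016 to 82644631) and held the highest score of the gene in every list, as did the shared region of Uhrf1. In wild-type replicates 1 and 3 it was the only Tdg peak. The Uhrf1 region was the only peak of its gene in those lists and in transgenic replicate 3. The scores of the Tdg region were 440, 335 and 179 in the transgenic lists, against 143, 274 and 55.5 in the wild-type lists. The window was covered to 4.57%, 4.93% and 2.99% in the transgenic lists, against 1.89%, 4.71% and 1.02% in the wild-type lists.

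**Figure D3:**
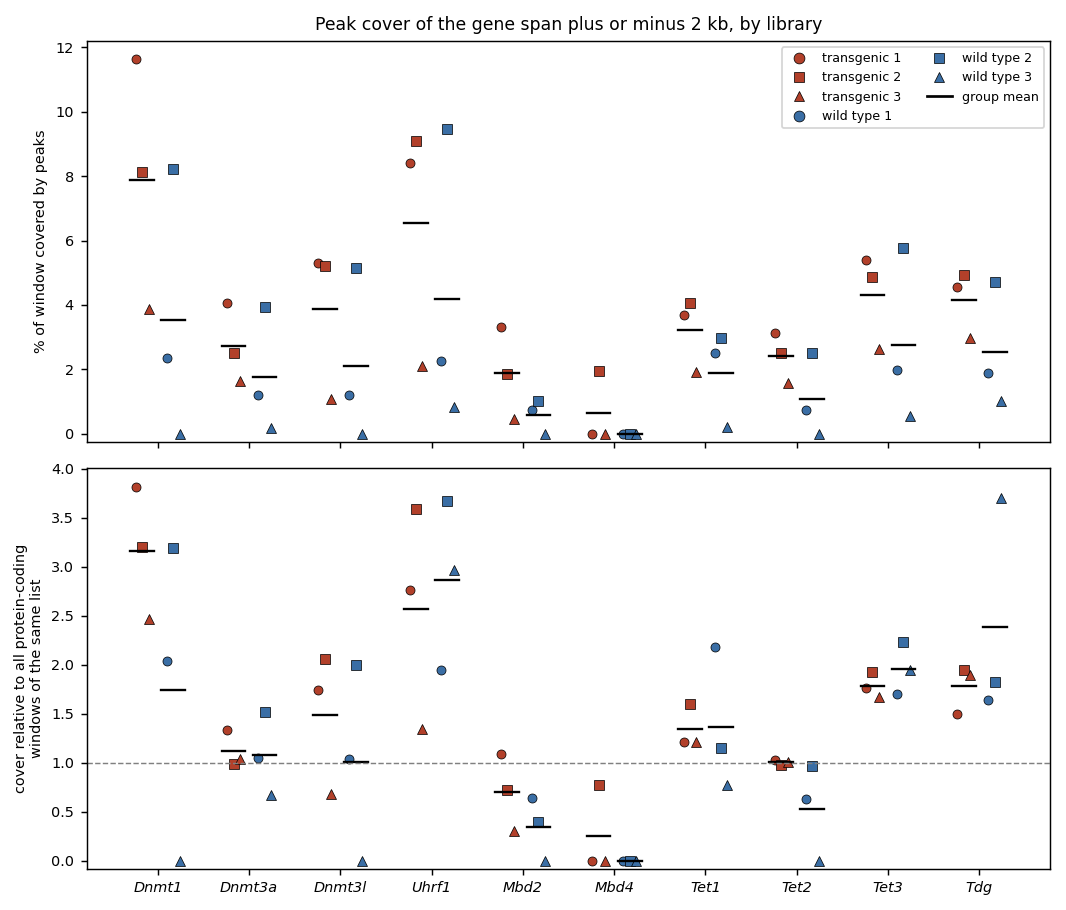
Share of each gene's window covered by peaks (upper panel, %) and the same share divided by that of all protein-coding windows in the same list (lower panel), for 3 transgenic (red) and 3 wild-type (blue) libraries, with group means as lines. In the upper panel wild-type replicate 2 lies among the transgenic values for most genes and wild-type replicate 3 is the lowest, or shares the lowest value, for every gene. In the lower panel the dashed line marks the level of protein-coding windows as a whole.

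None of the 9 genes that could be tested passed the test of a difference between transgenic and wild-type lungs. The measure tested was log2 of covered bp per kb of window plus a pseudocount of 1 bp per kb, fitted with limma over the 28104 genes with a peak in 2 or more lists. On this scale the differences of the 9 members that entered were from 0.92 (Tdg) to 2.52 (Dnmt1), transgenic minus wild type. The standard error was 1.03 for Tdg and 1.68 for Dnmt1. Adjusted p-values from limma lay between 0.621 and 0.625. Mbd4 did not enter. All 9 differences were positive, as were 93.3% of those of all genes tested. The median was 1.22 over the members and 1.50 over all genes, so the members' median lay below that of genes in general.

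Over the whole annotation limma called 0 genes higher (0%) and 0 lower (0%) at an adjusted p under 0.05, with 1227 higher and 5 lower at an unadjusted p under 0.05. All transgenic lists lay above all wild-type lists in 7.96% of genes and below them in 0.0107%, and in 0 of the 9 members either way. That count rests on single libraries. Without wild-type replicate 2 all transgenic lists lay above the others in 5 of the 9 members (Dnmt1, Dnmt3a, Tet2, Tet3 and Tdg) and in 15105 of 26735 genes. Without transgenic replicate 3 this held for 3 members (Dnmt3l, Mbd2 and Tet1) and 9943 of 27684 genes, and with lists trimmed to their 30637 best-scoring peaks for Tet1 and 1412 of 14909 genes. Two-sided exact permutation tests on the covered share, which cannot go below p = 0.10 with 3 against 3, gave p from 0.30 to 0.70 for the 9 members and 1 for Mbd4. The mean cover of Dnmt1 was 7.87 ± 3.88% in transgenic and 3.53 ± 4.24% in wild-type lungs (SD, n = 3 each; exact permutation p = 0.30). That of Tet1 was 3.22 ± 1.15% in transgenic and 1.90 ± 1.48% in wild-type lungs (SD, n = 3 each; exact permutation p = 0.30). Without wild-type replicate 3 the differences of the 9 members were 0.16 to 0.73, and without wild-type replicate 2 they were 1.48 to 3.87, all positive and none past the threshold in limma. Once each library's mean over all genes was subtracted, Dnmt3a, Uhrf1, Tet1, Tet3 and Tdg turned negative and the other 4 stayed positive, from -0.69 to 0.91. With the trimmed lists, Dnmt1 (-0.74), Uhrf1 (-1.13) and Tet3 (-0.19) turned negative, and Dnmt3l, Mbd2 and Mbd4 could not be tested.

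**Figure D4:**
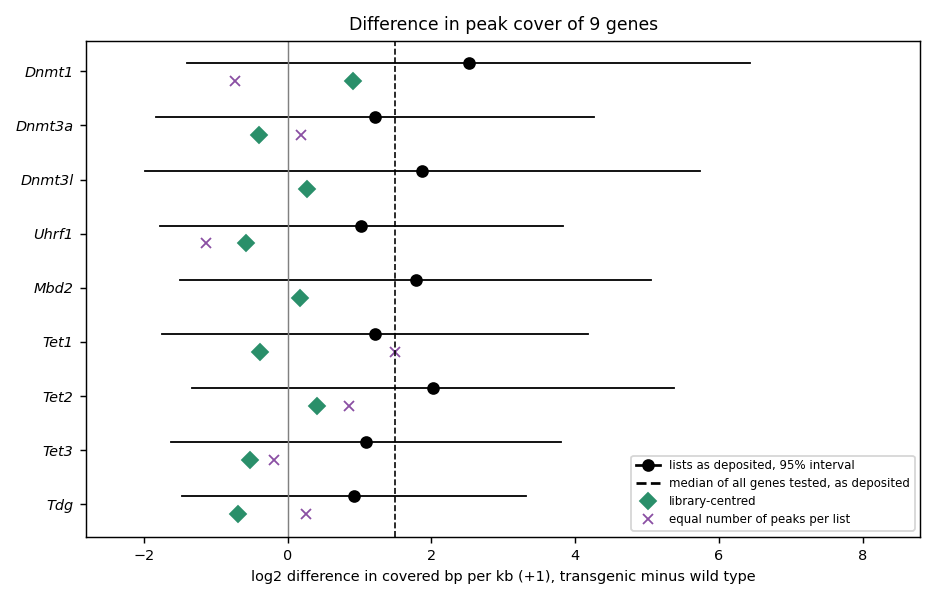
Log2 difference in peak cover, transgenic minus wild type, of the 9 members tested (black circles with 95% intervals from limma). Green diamonds give the values after centring each library and purple crosses those from lists trimmed to their 30637 best-scoring peaks, where 7 members could be tested. Every interval includes 0, and the dashed line is the median of all genes tested, 1.50.

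Divided by the cover of protein-coding windows in the same list, the genes kept a rough order of level. This ratio was added after the values were seen. Uhrf1 had 2.76, 3.59 and 1.35 in the transgenic lists, against 1.95, 3.67 and 2.97 in the wild-type lists, so it lay above the protein-coding level in all 6 lists, as did Tet3 and Tdg. Tet3 had 1.77, 1.92 and 1.67 in the transgenic lists, against 1.70, 2.24 and 1.94 in the wild-type lists. Tdg had 1.50, 1.95 and 1.90 in the transgenic lists, against 1.64, 1.83 and 3.70 in the wild-type lists. Dnmt1 had 3.82, 3.20 and 2.47 in the transgenic lists, against 2.04, 3.19 and 0 in the wild-type lists. Dnmt3a and Tet2 lay near 1, with medians of 1.04 and 0.976 over the 6 lists, and Mbd2 below it, with a median of 0.519. Neighbours in this order overlapped between libraries. The divisor counts all bases together and was above the cover of the median protein-coding gene in every list, so 1 is not the level of a typical gene. Mbd2 was covered more than 56.1%, 46.9% and 42.8% of protein-coding genes in the transgenic lists, against 54.3%, 38.3% and 0% in the wild-type lists. For Dnmt3a these shares were 61.3%, 53.5% and 59.5%, against 62.1%, 65.5% and 70.7%.

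Tet2 was the 1 member whose groups did not overlap on this ratio. It had 1.03, 0.983 and 1.01 in the transgenic lists, against 0.629, 0.968 and 0 in the wild-type lists (exact permutation p = 0.10, the smallest possible with 3 against 3). Of all 28104 genes, 6.49% had every transgenic list above every wild-type list on this ratio, and 2.44% had the reverse. The gap between the lowest transgenic and the highest wild-type value was small, and 1 of 9 members is near that background.

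Summed over the 10 windows, which hold 600850 bp, peaks covered 4.86%, 4.04% and 1.92% in the transgenic lists, against 1.55%, 4.17% and 0.231% in the wild-type lists. That was 1.60, 1.59 and 1.22 times the level of protein-coding windows in the transgenic lists, against 1.34, 1.62 and 0.836 times in the wild-type lists. The scores of member peaks had a median of 101, 81.5 and 98.4 in the transgenic lists, against 127, 103 and 91.3 for all peaks of those lists. In the wild-type lists the medians were 72.0, 74.7 and 58.5, against 75.3, 103 and 70.6 for all peaks. Member peaks thus had a lower median score than all peaks in every list except that of transgenic replicate 3. They numbered 60, 60 and 31 in the transgenic lists, against 23, 56 and 7 in the wild-type lists. Some of these medians therefore rest on few peaks.

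Most regions of these genes were found in few lists. Of the 92 regions, 55 (59.8%) were in 1 or 2 lists, against 44.5% of all 165995 merged regions, and 15 (16.3%) were in 5 or 6 lists, against 25.9%. The 4 regions in all 6 lists were those of Uhrf1, Tet1, Tet3 and Tdg described above.

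**Figure D5:**
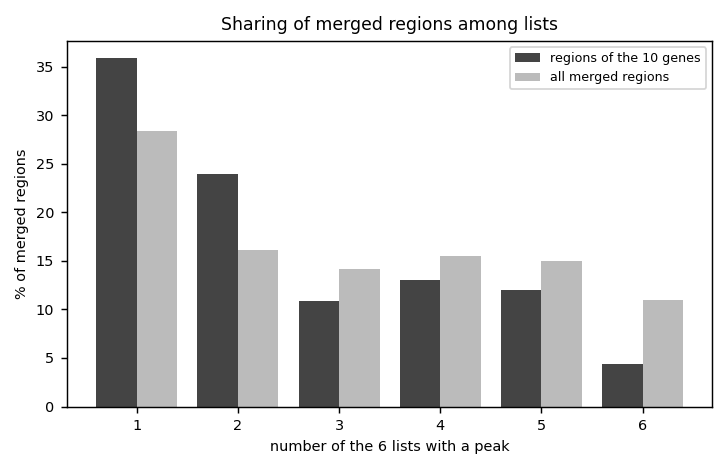
Share of merged regions (%) found in 1 to 6 of the 6 lists, for the 92 regions of the 10 genes (dark bars) and for all 165995 regions (light bars). Regions in a single list make up 35.9% of the members' regions and 28.4% of all.

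Of the 92 regions, 2 (2.17%) had a peak in every transgenic list and were missing from the wild-type lists, against 1.8% of all merged regions, and the reverse held for 0, against 0.0145%. The region in Dnmt1 (20943467 to 20943940), 16.2 kb from the upstream start, had scores of 59.5, 79.0 and 58.3 in the transgenic lists. The region in Tet2 (133487786 to 133488417), 57.0 kb from the upstream end, had 82.6, 54.0 and 71.7. All these scores were below 100, and below the median peak score of transgenic replicate 1 (127). Lists trimmed to their 30637 best-scoring peaks could therefore keep neither region. In those lists no region of the members had this pattern. The share is close to that of regions in general.

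The authors' deposited table of differential regions listed no region in any of the 10 windows. It lists 407 regions, 304 higher and 103 lower in transgenic lungs, which is 0.441% of the 92205 merged regions found in at least 3 lists. The members held 37 such regions, too few to read a count of 0 against that share. The nearest listed region lay 306 kb from Tet1 and 541 kb from Dnmt3l, and those of the other members were 625 kb or more away. The region near Tet1 had a log2 fold of -1.37 (FDR 0.0839) and that near Dnmt3l a log2 fold of 1.16 (FDR 0.0953), transgenic minus wild type, in the authors' deposited table. For the region nearest Uhrf1, the authors' deposited table gives a log2 fold of 0.82 (FDR 0.0131).

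Other genes of the pathway gave no call either. Of 38 listed, which include cofactors of methylation maintenance, other methyl-CpG binders, repair enzymes and metabolic enzymes that supply or limit the reactions, 32 entered the fit and limma called 0 higher and 0 lower. Their median log2 difference was 1.49, against 1.50 over all genes, and 30 of the 32 were positive. All transgenic lists lay above all wild-type lists for 1 of the 32 (3.1%), against 7.96% of all genes tested. A count of 1 is too small to set the 32 apart from that share. The gene was Zbtb4, a zinc-finger gene whose protein binds methylated CpG. It was covered to 3.05%, 3.99% and 3.58% in the transgenic lists, against 1.55%, 1.93% and 1.06% in the wild-type lists, with a limma adjusted p of 0.621. Dnmt3b, the gene named after the enzyme of the transgene, was covered to 8.56%, 5.27% and 1.88% in the transgenic lists, against 0.721%, 4.58% and 0.432% in the wild-type lists, so the groups overlapped as they did for the members.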

How the data were processed

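Methylated DNA was captured with a commercial kit (MethylCap), per the labels' protocols, and sequenced from 6 lungs, 3 transgenic and 3 wild type. Groups and replicate numbers were read from the sample titles. The submitters' processing notes name Bowtie, DiffBind, edgeR and the build mm10, with no versions or settings. Each deposited peak list holds 1 library, and peak scores were assigned by the authors' caller. Peak names have the form MACS writes, and which version, settings and control were used was not given in the sources used here. Concentrations and folds in the deposited table are on a log2 scale, and its p-value and FDR are those of the authors, per the file headers. How these were normalized was not given in the sources used here.

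Peaks, deposited with 0-based starts, were intersected with gene spans of RefSeq GRCm38.p6, and coordinates are printed 1-based. Strand and start sequences came from the RefSeq promoter table, which had entries for 9 of the 10 genes; exons were not resolved. Covered bp per kb was compared with limma 3.58.1 in R 4.3.3 (empirical Bayes with trend, Benjamini-Hochberg adjustment) in genes with a peak in 2 or more lists. Python 3.11.15, numpy 2.4.6 and pandas 2.3.3 did the rest. The fit was also run on simulated data. What size of difference it can detect at the spread of these lists is not given here. The replicates are labelled biological. Depth per library is unknown. The members, gene lists and tests were chosen with earlier results of these data known. All 10 members were named, with regions in all 6 lists, in 1 group only, at a start end or of the highest score. A few other regions (Dnmt1, Dnmt3a, Dnmt3l) and Zbtb4 were picked for mention after their values were seen. Alternatives were lists trimmed to equal length (the 30637 best-scoring peaks of each), only peaks that reach the median score of all lists pooled (96.3), centring of each library, other flanks, end windows, pseudocounts, filters and merging gaps, protein-coding genes alone, a replicate block, and leaving out each library. Cover relative to protein-coding windows was added after the data were seen.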

Additional observations from a re-analysis of the deposited data

How the results depend on the processing

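Read depth is unknown and list length differs between libraries, so the level of cover in a gene moves with the list. The fit over all genes called 0 genes in each direction as deposited, but 120 higher and 18 lower with lists trimmed to their 30637 best-scoring peaks, and 87 higher with a flank of 0 bp. With trimmed lists and a replicate block together, chosen after seeing the data, it called 0. Leaving out each library in turn gave 0 to 3509 higher and 0 to 5 lower genes, with 3509 without wild-type replicate 2 and 1008 without transgenic replicate 3. None of the members was called by limma under any alternative run.

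The 2236 genes with every transgenic list above every wild-type list became 1412 with trimmed lists, 1091 with library centring and 1120 with protein-coding genes alone, and 2242 to 15105 when a library was left out (15105 without wild-type replicate 2, 9943 without transgenic replicate 3). The 3 genes with the reverse became 116, 866 and 1 under those settings, 0 with only peaks that reach the pooled median score, 6 with a flank of 5000 bp, 1 with a peak in 4 or more lists, 685 with cover relative to protein-coding windows, and 5 to 421 when a library was left out (421 without wild-type replicate 3). Library centring moves the median log2 difference of all genes from 1.50 to -0.11.

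Differences of the members turned negative with library centring for Dnmt3a (-0.39), Uhrf1 (-0.58), Tet1 (-0.39), Tet3 (-0.52) and Tdg (-0.69), and with trimmed lists, with or without the replicate block, for Dnmt1 (-0.74), Uhrf1 (-1.13) and Tet3 (-0.19). No other alternative run turned the direction of a member. Leaving out a library left the differences of the 9 members between 0.16 and 3.87.

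The mean number of members with a peak at the start end was 1.33 higher in the transgenic lists, 1 to 2 higher when a library was left out, and -0.333 with trimmed lists. For the body it was 1.33 higher, 0 to 2 higher when a library was left out, and -0.667 with trimmed lists. For the opposite end it was 0.667 higher, and 0 to 1.5 higher when a library was left out. The 2 regions of the members in transgenic lists alone became 0 with trimmed lists and 0 with only peaks that reach the pooled median score. For these 2 regions both drops to 0 were fixed in advance. Their scores all lay below 96.3 and below the median peak score of transgenic replicate 1 (127). The count was 2 to 9 when a library was left out (9 without transgenic replicate 3, 9 without wild-type replicate 2, 5 without transgenic replicate 2). Those in wild-type lists alone were 0, and 0 to 1 when a library was left out. The cause of the other shifts was not tested.

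The replicate block called 0 genes in each direction as well. Deviations of same-numbered libraries from their group means correlated at -0.07, 0.04 and 0.03 for replicates 1, 2 and 3, so that the numbers give no sign of paired animals.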
